A study of Mus musculus with 35 samples.

Results

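The long non-coding RNAs *Malat1*, *Neat1*, *Miat*, *Tug1*, *Rmst*, *Pvt1* and *Dleu2* were followed across mouse tissues. They were chosen by name, as lncRNAs known for a nuclear location or a role in gene regulation. They make up 7 of the 13144 lncRNA genes and of the 55356 genes in the count table. The samples were brain, cerebellum, heart, colon and gonad of adult C57BL/6J mice of both sexes, with no allele, treatment or age group besides. Strand-specific, rRNA-depleted RNA-seq gave 29 libraries in 10 groups of 1 tissue and sex, with 3 libraries per group and 2 for male heart. Brain, cerebellum and colon therefore had 6 libraries each, heart 5, and ovary and testis 3 each, so that ovary and testis cannot be told apart from sex. The labels number the replicates but do not say that each came from another animal, so the p-values below measure only the spread between these libraries. Iso-seq, a long-read sequencing of full-length cDNA with 6 flow cells, contributed transcript models on which reads were counted and no levels.

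LncRNAs that stay in the nucleus act there as RNA. *Malat1* gathers at nuclear speckles, the stores of splicing factors, and *Neat1* is the scaffold of paraspeckles, bodies that hold RNA-binding proteins. *Miat* (also called Gomafu) forms its own nuclear dots and carries a repeated splicing signal, whereas *Tug1*, *Rmst* and *Pvt1* are better known for regulating other genes, *Rmst* in the neural lineage and *Pvt1* beside the oncogene *Myc*. *Dleu2* is the host transcript of a pair of microRNAs. Whole-tissue RNA was sequenced, so none of the values below says where in the cell an RNA was. In such bulk tissue, fewer cells of a type and less RNA per cell cannot be told apart.

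The sequences below are those that set what an RNA-seq library can see of these lncRNAs or that explain their names. All are printed 5′ to 3′ as the RNA strand in DNA letters, from GENCODE transcripts on GRCm38. *Malat1* ends not in an added poly(A) tail but in a triple helix, in which T-rich stretches fold back on a genome-encoded A-rich tract. Capitals mark these stretches in bases 6603 to 6695 of the longest transcript, chr19:5795978-5796070 on the minus strand. The run of 12 A ended 298 bases before the annotated end of the 6983-base transcript.
Malat1 triple helix: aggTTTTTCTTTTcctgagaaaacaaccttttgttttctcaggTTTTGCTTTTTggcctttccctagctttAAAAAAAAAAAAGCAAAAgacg

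*Neat1* is made in a short form, which is polyadenylated, and a long form, which carries paraspeckle assembly. The deposited annotation held 2 Iso-seq models of *Neat1*, which ended 3177 and 2916 bases from the start of the longest transcript, which has 20771 bases. In capitals is AATAAA, the canonical polyadenylation signal, which lay 25 bases before the first of these ends and 47 bases before the second. The 2 windows are chr19:5842282-5842351 and chr19:5842543-5842612, both on the minus strand.
Neat1 end at base 3177: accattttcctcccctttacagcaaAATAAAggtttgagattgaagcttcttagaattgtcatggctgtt
Neat1 end at base 2916: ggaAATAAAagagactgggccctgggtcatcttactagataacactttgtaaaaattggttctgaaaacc

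The repeat of *Miat* is TACTAAC, the branch-point sequence bound by the splicing factor SF1, searched on the RNA strand only. The longest *Miat* transcript, of 9163 bases, held 6 copies, the first starting at base 4941 and the last at base 5623, and 5 of them lie in the 2 windows shown with the copies in capitals, chr5:112216757-112216807 and chr5:112217314-112217355 on the minus strand. The longest transcript of *Neat1* held 1 copy and those of the other 5 lncRNAs held none. Of the longest transcripts of 13374 lncRNA genes, 613 (4.58%) held at least 1 copy and 2 held 6 or more. Length counts in this, since 10 of the 21 transcripts at least as long as that of *Miat* (47.6%) held a copy.
Miat repeat, 3 copies: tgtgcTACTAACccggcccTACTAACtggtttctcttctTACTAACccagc
Miat repeat, 2 copies: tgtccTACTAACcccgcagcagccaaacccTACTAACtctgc

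*Dleu2* and *Rmst* host microRNAs, whose mature sequences are given as in the RefSeq table for GRCm38.p6 with the seed, bases 2 to 8, in capitals. The pair within *Dleu2*, at chr14:61632075-61632096 and chr14:61631936-61631957, shares the seed AGCAGCA and so falls into 1 family. The pair in introns of *Rmst* has 2 other seeds. Mature microRNAs were not measured in these libraries of long RNA.
mmu-miR-15a-5p (Dleu2): uAGCAGCAcauaaugguuugug
mmu-miR-16-5p (Dleu2): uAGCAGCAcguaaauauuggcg
mmu-miR-135a-5p (Rmst): uAUGGCUUuuuauuccuauguga
mmu-miR-1251-5p (Rmst): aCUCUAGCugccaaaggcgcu

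How much of each lncRNA was counted differed widely. For 3 of them an Iso-seq locus was counted in place of the ENSEMBL gene. *Malat1* was counted over all of its 6983 bases at chr19:5795690-5802672 on the minus strand, a single exon block of the ENSEMBL gene. *Neat1* was counted on an Iso-seq locus at chr19:5842302-5845478 on the minus strand, which covers 3177 bases, or 15.3%, of the reference exons. The 17594 bases that belong only to the long form had no model, so the *Neat1* values below are those of the 5′ part that both forms share. *Tug1* was counted on 3 Iso-seq models at chr11:3639794-3647525 on the minus strand, with 52.5% of its 9734 reference exon bases. *Dleu2* was counted on 1 unspliced Iso-seq model of 3283 bases at chr14:61628610-61631892 on the minus strand, 28.97% of its 11334 reference exon bases. Both microRNAs of *Dleu2* shown above lie just beyond the 5′ end of that model. *Miat* (chr5:112213228-112229395, minus strand, 9293 exon bases in 6 blocks), *Rmst* (chr10:92071037-92165170, minus strand, 7423 bases in 14 blocks) and *Pvt1* (chr15:62037986-62378096, plus strand, 6996 bases in 21 blocks) kept their ENSEMBL models.

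**Figure D1:**
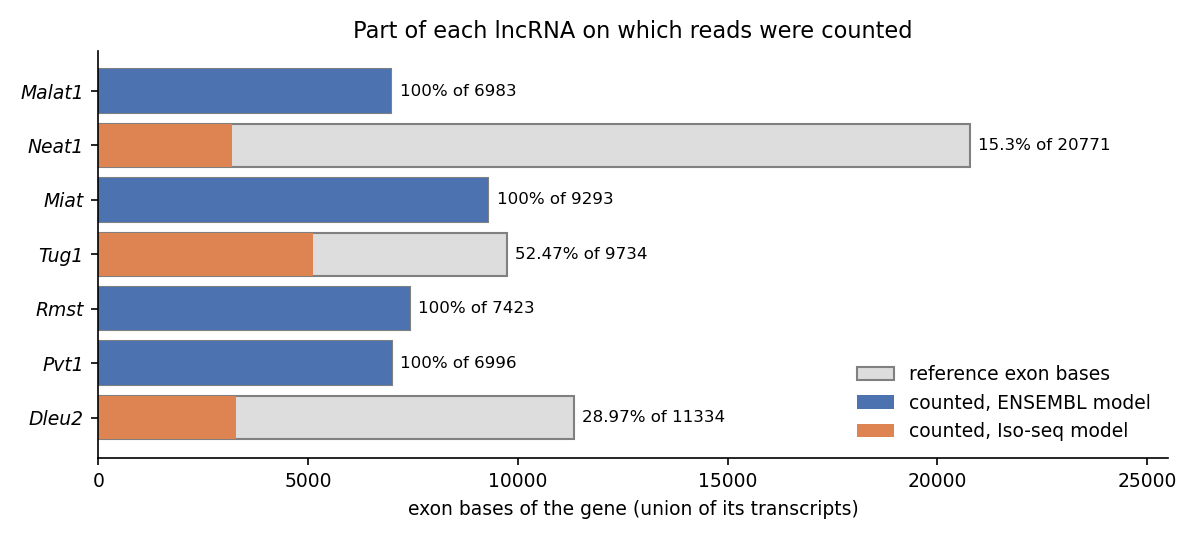
Exon bases of each of the 7 lncRNAs in the reference (grey bars) and the bases on which reads were counted, on ENSEMBL models (blue) or Iso-seq models (orange). *Neat1* was counted over 15.3% of its reference exon bases, *Dleu2* over 28.97% and *Tug1* over 52.5%.

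The counts could not be tied to a strand. A model on the other strand that lies wholly inside *Malat1*, *Gm37376*, held 143367 counts over the 29 libraries, with 0.696 times the counts per base of *Malat1* and between 2.84% and 6.51% of the *Malat1* count per library. Over the whole annotation, 386 models lay wholly inside exons of a gene on the other strand, and in the 98 whose host gene held at least 5 counts per base the median ratio of counts per base was 1.31. In contrast, the 503 models wholly inside exons of a gene on the same strand had no count at all, among them 15 small ones inside these lncRNAs. *Tsix*, the antisense partner of *Xist*, had 450 to 2820 counts in the 15 female libraries and 0 to 38 in the 14 male ones, as did *Xist* itself with 784 to 5660 and 0 to 8. Reads of a lncRNA and of its antisense partner therefore cannot be told apart here. For *Miat* this concerns *Gm26953*, of 4532 bases, which shares 2260 of its bases and had 0.896 times its counts per base. Per library it held 0% to 226% of the *Miat* count. In the counted *Dleu2* model it concerns *Gm26916* (352 bases, 4.44% to 27.5% of the *Dleu2* count) and *Gm27845* (114 bases), with 1.29 and 1.22 times its counts per base. *H2afy3*, of 1112 bases, shares 109 bases with *Pvt1* and held up to 214% of its count.

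Library totals ran from 11742417 counts in colon to 36194255 in brain, so that 1 count weighs most in colon. Levels are given as FPKM, the count scaled to the library total (CPM) and to the kilobases of counted exon, and only FPKM is used to compare one lncRNA with another. Differences between tissues are log2 ratios from edgeR's quasi-likelihood fit with TMM scaling, with the adjusted p of the same fit over the 29911 genes tested, and a difference is called where this p is under 0.05. All 7 lncRNAs passed the filter on low counts. TMM and plain totals gave different baselines: with TMM the values of a library moved on average by +0.43 in log2 in heart, +0.21 in testis and +0.01 in brain, and by −0.13 in cerebellum, −0.13 in colon and −0.43 in ovary. A difference from the mean of the other 5 tissues, or between tissues next to each other in the order of means, whose call changed by plain totals is given with that value beside it. Tissue markers matched the labels, with cardiomyocyte genes summing to 5034 to 11001 FPKM in heart and to at most 32.7 FPKM elsewhere, and colon epithelial genes to 8098 to 15723 FPKM in colon and to at most 23.1 FPKM elsewhere. Replicate 3 of female heart stood apart, with 5034 FPKM of cardiomyocyte genes against 9663 to 11001 in the other 4 hearts and 3078 FPKM of adipocyte genes against 360 to 495.

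Only *Malat1* was abundant in the sense of its rank. By its highest tissue mean it was 4th of the 12102 lncRNAs with a count and 55th of 45451 genes with a count, and it took between 0.149% and 2.03% of all counts of a library. *Neat1* was 247th and *Tug1* 429th among lncRNAs. *Dleu2* was 2049th, *Rmst* 2706th, *Miat* 2770th and *Pvt1* 3854th. Tau, an index of tissue specificity that runs from 0 for even levels to 1 for a single tissue, was 0.899 for *Miat* and 0.491 for *Tug1*, with the other 5 between these. The median over the 4986 lncRNAs with at least 1 FPKM in a tissue was 0.838, so that 6 of the 7 were more evenly spread than the middle lncRNA. All 7 differed among the 6 tissues in the joint test, as did 95.5% of all genes tested, so this count says nothing particular about them.

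**Figure D2:**
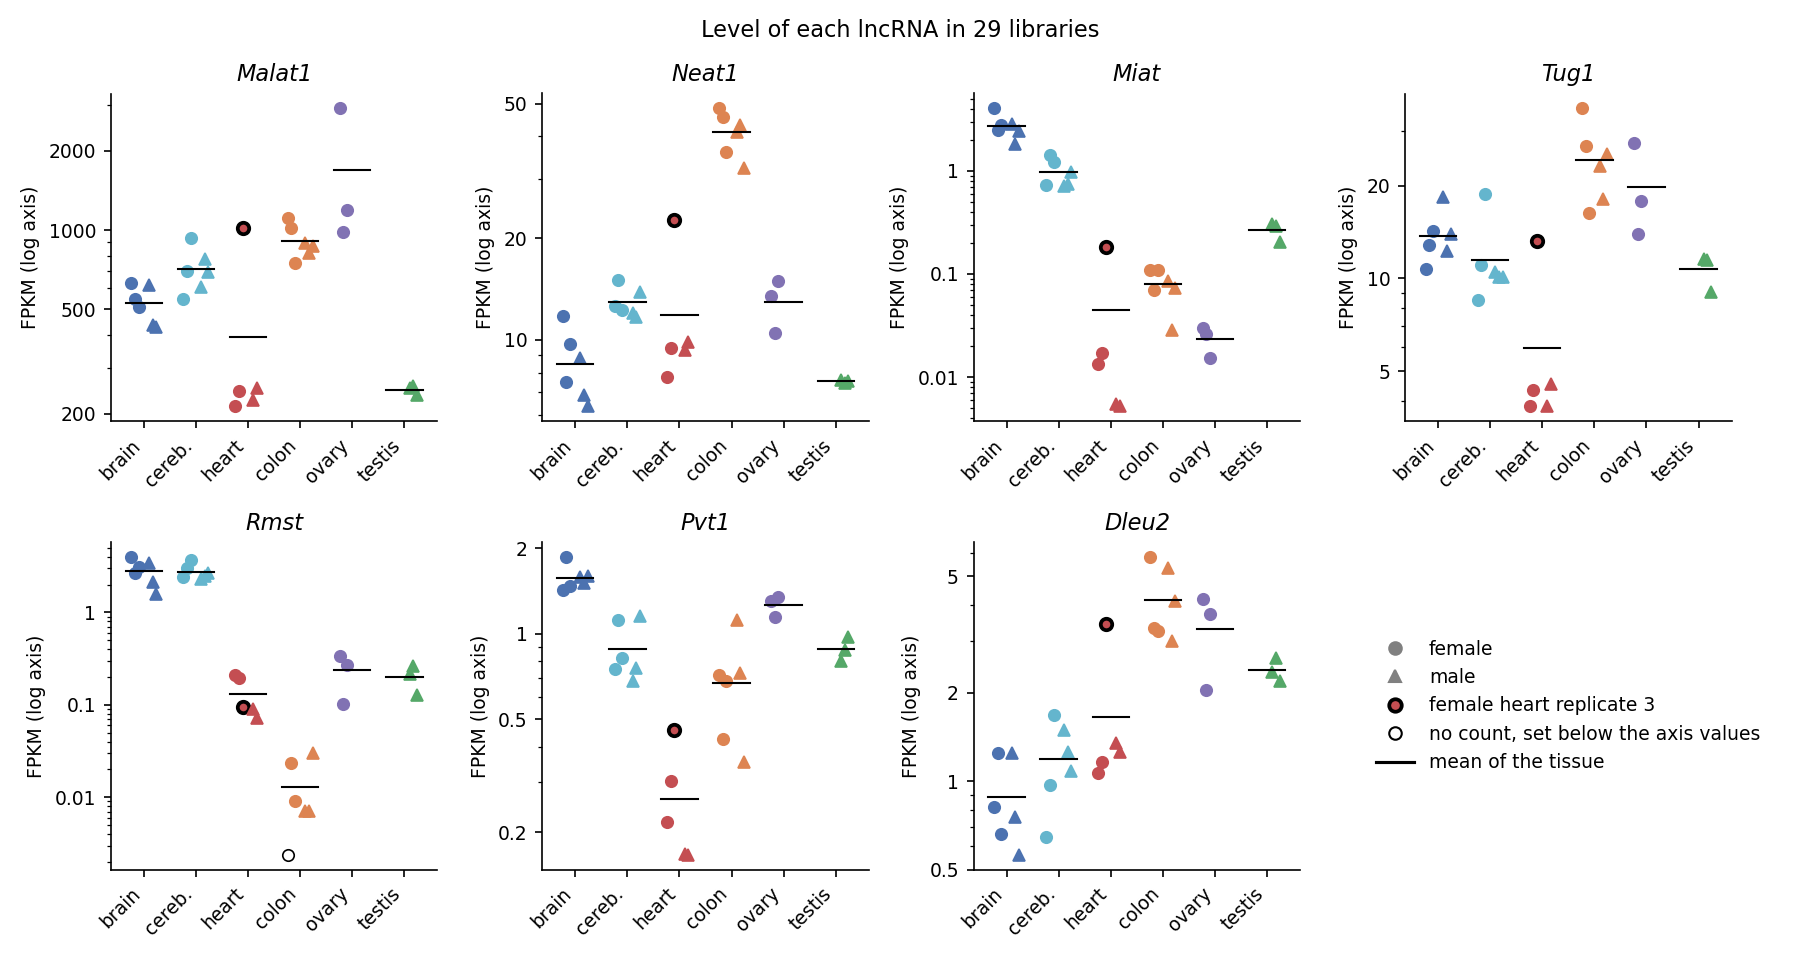
Level of each lncRNA in FPKM (log axes, each panel with its own range) in every library by tissue, with circles for females, triangles for males, a line at the tissue mean, a black ring around replicate 3 of female heart, and an open circle, set below the axis values, for the library without a count. *Neat1* was highest in all 6 colon libraries, *Miat* and *Pvt1* in all 6 brain libraries, and *Rmst* was lowest in all 6 colon libraries.

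*Malat1*, the speckle lncRNA, was counted at 214 to 2902 FPKM in every library. Its 6 brain libraries ran from 428 to 628 FPKM with a median of 529, and the 6 of cerebellum from 549 to 930 with a median of 699. The 6 colon libraries ran from 750 to 1107 FPKM with a median of 881. The tissue means were 528 ± 86.7 (SD, n = 6) in brain, 710 ± 134 (SD, n = 6) in cerebellum and 910 ± 132 (SD, n = 6) in colon. In ovary the 3 libraries held 2902, 987 and 1192 FPKM, and in testis 251, 255 and 236 FPKM, so that testis was uniform and ovary was not. The 5 heart libraries held 214, 244 and 1019 FPKM in females and 227 and 251 FPKM in males. Without replicate 3 of female heart the heart mean was 234 ± 16.8 (SD, n = 4) in place of 391 ± 352 (SD, n = 5), which lies below the testis mean of 247 ± 9.62 (SD, n = 3) in FPKM. With TMM scaling heart stayed above testis without that library, by 0.28 (adjusted p = 0.29), which was not called.

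Against the mean of the other 5 tissues, *Malat1* was higher in ovary by 1.26 ± 0.21 in log2 (SE, adjusted p = 2.2e-05). It was also higher in colon by 0.58 ± 0.17 (adjusted p = 0.0051). It was lower in testis, with −1.26 ± 0.27 (adjusted p = 0.00016). Without replicate 1 of ovary, the highest library of all, the ovary difference was 0.72 (adjusted p = 0.013). In heart the difference was −0.55 ± 0.20 (adjusted p = 0.026), and it was −0.86 (adjusted p = 0.00014) without replicate 3 of female heart. The heart call was lost when replicate 1 or 2 of female heart, replicate 1 or 2 of male heart or replicate 2 of testis was left out, with differences of −0.44, −0.43, −0.51, −0.60 and −0.44. Brain and cerebellum, at −0.20 ± 0.18 (adjusted p = 0.41) and 0.16 ± 0.18 (adjusted p = 0.54), were not called.

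In the order of tissue means (ovary, colon, cerebellum, brain, heart, testis) no neighbouring pair of tissues differed beyond the spread, with differences of 0.29 to 0.59 in log2 and adjusted p of 0.077 to 0.39. Ovary against colon, at 0.57 (adjusted p = 0.087), was called by plain totals, with 0.90 (adjusted p = 0.032), and also without replicate 3 of female heart, with 0.57 (adjusted p = 0.025). Colon against cerebellum, at 0.35 (adjusted p = 0.17), was called with the scaling of DESeq2 (RLE), with 0.57 (adjusted p = 0.036). The steps add up, since 10 of the 15 pairs of tissues were called. Between cerebellum and ovary the difference was −0.92 (adjusted p = 0.0049), and it was −0.38 (adjusted p = 0.25) without replicate 1 of ovary. Between brain and heart it was 0.29 (adjusted p = 0.32), and 0.60 (adjusted p = 0.0098) without replicate 3 of female heart. Without replicate 1 of ovary, the ovary mean was 1089 FPKM, but the fitted step from ovary to colon was only 0.02 (adjusted p = 1.0).

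*Neat1*, the paraspeckle lncRNA, was highest in colon. Its 6 colon libraries ran from 32.3 to 48.4 FPKM with a median of 42.2, and no library of another tissue reached that range. Over all genes tested, 6.52% had every colon library above every other library. The next highest value was 22.7 FPKM in replicate 3 of female heart, whose 4 companions held 7.78 to 9.84 FPKM. Brain ran from 6.36 to 11.8 FPKM with a median of 8.18, and cerebellum from 11.7 to 15.1 FPKM with a median of 12.4. Ovary held 13.4, 10.5 and 15.0 FPKM and testis 7.62, 7.44 and 7.57 FPKM. The colon mean of 41.1 ± 6.06 FPKM (SD, n = 6) compared with 13.0 ± 2.28 (SD, n = 3) in ovary, the next tissue.

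Colon was higher than the mean of the other 5 tissues by 1.84 ± 0.10 in log2 (adjusted p = 7.3e-15), and higher than ovary by 1.96 ± 0.18 (adjusted p = 1.1e-09). *Neat1* was lower in brain, with −0.73 ± 0.11 (adjusted p = 2.6e-06). Testis was lower too, with −0.68 ± 0.15 (adjusted p = 0.00026). Ovary came out lower by TMM scaling, with −0.51 ± 0.15 (adjusted p = 0.0062), but stood at −0.01 (adjusted p = 1.0) by plain totals, and the call was lost without replicate 2 of ovary (−0.39). Heart was at 0.22 ± 0.11 (adjusted p = 0.12), which turned to −0.25 (adjusted p = 0.22) by plain totals and was 0.10 (adjusted p = 0.53) without replicate 3 of female heart. Among neighbours in the order of means, colon and ovary differed and so did heart and brain, by 0.79 ± 0.14 (adjusted p = 2.1e-05), whereas the steps from ovary to cerebellum, cerebellum to heart and brain to testis were not called. Heart against ovary, a step further apart, was called with heart higher, by 0.61 ± 0.17 (adjusted p = 0.0054), opposite to the order of means, and stood at −0.20 (adjusted p = 0.51) by plain totals. By plain totals heart and brain differed by 0.42 (adjusted p = 0.070), which was not called. Cerebellum against heart had the sign opposite to the order of means, with −0.31 (adjusted p = 0.064), was called by RLE with −0.40 (adjusted p = 0.018), and turned to 0.19 (adjusted p = 0.43) by plain totals. The spread between libraries of a group was small, 0.225 in log2 against a median of 0.420 over all genes tested.

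*Neat1* and *Malat1* are neighbours on chromosome 19, yet they ranked the tissues differently. Ovary held the highest mean of *Malat1* and colon that of *Neat1*. Over the 29 libraries, their log2 levels had a Pearson r of 0.40. The protein-coding gene *Frmd8*, which lies 4224 bases from the *Neat1* locus, was read at 1.94 to 14.1 FPKM in the tissue means. It also had its highest tissue mean in colon, with r = 0.39 to *Neat1* and 0.18 to *Malat1*. These coefficients share the libraries, their depth and their tissue differences, and are given as a description.

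*Miat* was highest in neural tissue. The 6 brain libraries ran from 1.83 to 4.02 FPKM with a median of 2.63, and every one of them lay above all other libraries, a pattern that 4.93% of all genes tested showed. Cerebellum followed with 0.711 to 1.41 FPKM and a mean of 0.969 ± 0.294 (SD, n = 6), and testis with 0.306, 0.292 and 0.203 FPKM. In colon the mean was 0.0793 ± 0.0304 FPKM (SD, n = 6). In ovary the 3 libraries held 5, 6 and 4 counts, in all 15, or 0.0227 FPKM with a 95% Poisson interval of 0.0127 to 0.0375 that covers counting error only. In heart the libraries held 3, 4 and 41 counts in females and 1 and 1 in males. Without the library with 41 counts the other 4 hearts held 9 counts, or 0.0108 FPKM (0.00494 to 0.0205).

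Brain was higher than the mean of the other 5 tissues by 4.80 ± 0.21 in log2 (adjusted p = 1.2e-16). Cerebellum was higher by 2.85 ± 0.22 (adjusted p = 2.3e-11). Testis also came out higher, by 1.05 ± 0.30 (adjusted p = 0.0035), but it was not called by plain totals, at 0.76 (adjusted p = 0.070). *Miat* was lower in heart (−3.27 ± 0.45), ovary (−3.91 ± 0.52) and colon (−1.52 ± 0.35), with adjusted p of 6.2e-07, 7.8e-07 and 0.00047. Without replicate 3 of female heart the heart difference was −4.13 (adjusted p = 3.2e-10). Each of the first 4 steps of its order (brain, cerebellum, testis, colon, heart, ovary) was larger than the spread, with 1.63, 1.501, 2.14 and 1.46 in log2 and adjusted p of 3.2e-05, 0.00046, 1.4e-05 and 0.033. Only the last one, heart against ovary, was not called (0.53 ± 0.84, adjusted p = 0.69), and it turned to −0.20 (adjusted p = 0.92) by plain totals and to −0.33 (adjusted p = 0.76) without replicate 3 of female heart, when the heart mean of 0.0103 FPKM lay below the ovary mean of 0.0237 FPKM. In all, 14 of its 15 pairs of tissues were called.

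*Rmst*, a lncRNA of neural differentiation, was high in both neural tissues and close to absent from colon. The 6 brain libraries ran from 1.59 to 3.99 FPKM with a median of 2.91, and the 6 of cerebellum from 2.27 to 3.69 FPKM with a median of 2.57. No library of another tissue came near these values: ovary held 0.336, 0.103 and 0.269 FPKM, testis 0.213, 0.261 and 0.127 FPKM, and heart 0.211, 0.194 and 0.0954 FPKM in females and 0.0894 and 0.0719 FPKM in males. The colon libraries held 0, 3 and 1 counts in females and 1, 1 and 3 in males. Replicate 1 of female colon, with 0 counts, allows up to 0.0344 FPKM at 3 counts. All 9 counts of colon together gave 0.0128 FPKM with a 95% Poisson interval of 0.00586 to 0.0243, against 2.79 FPKM (2.70 to 2.88) from 3473 counts in brain. Every colon library lay below every other library, which held for 1.91% of all genes tested.

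Against the mean of the other 5 tissues, *Rmst* was higher in brain by 3.93 ± 0.21 in log2 (adjusted p = 5.4e-15) and in cerebellum by 3.75 ± 0.21 (adjusted p = 2.2e-14). The 2 neural tissues did not differ beyond the spread, with 0.15 ± 0.26 (adjusted p = 0.78), in contrast to *Miat*. It was lower in colon, by a fitted −5.44 ± 0.42 (adjusted p = 1.9e-11) that rests on the 9 counts above. Heart was lower by −0.98 ± 0.33 (adjusted p = 0.013), a call that was lost without replicate 2 of female colon (−0.86) or replicate 2 of male heart (−0.92). Ovary, at −0.88 ± 0.35 (adjusted p = 0.045), was called in only 11 of the 29 fits with 1 library left out, with values of −1.13 to −0.53. Its difference was −0.36 (adjusted p = 0.44) by plain totals and −0.81, not called, without the filter on low counts. Testis, at −0.37 ± 0.35 (adjusted p = 0.38), was not called. Ovary, testis and heart did not differ between neighbours, while the steps from cerebellum to ovary (3.86 ± 0.40, adjusted p = 7.0e-09) and from heart to colon (3.72 ± 0.54, adjusted p = 1.6e-06) were called.

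*Tug1*, a widely expressed regulator of transcription, was counted at 3.85 to 35.6 FPKM in every library. The 6 colon libraries ran from 16.3 to 35.6 FPKM with a median of 24.2, brain from 10.7 to 18.4 FPKM with a median of 13.4, and cerebellum from 8.51 to 18.7 FPKM with a median of 10.3. Ovary held 27.5, 13.9 and 17.9 FPKM and testis 11.6, 11.5 and 9.03 FPKM. The heart libraries held 3.86, 4.34 and 13.3 FPKM in females and 3.85 and 4.54 FPKM in males, so that 4 of the 5 lay below every library of the other tissues. The highest tissue mean was 4.06 times the lowest, and 5.84 times without replicate 3 of female heart.

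Colon was higher than the mean of the other 5 tissues by 0.96 ± 0.15 in log2 (adjusted p = 2.9e-06), and heart was lower with −1.01 ± 0.19 (adjusted p = 4.4e-05). Without replicate 3 of female heart the latter was −1.20 (adjusted p = 2.7e-06). Brain (0.15 ± 0.15), cerebellum (−0.33 ± 0.16), ovary (0.24 ± 0.20) and testis (−0.03 ± 0.21) were not called, with adjusted p of 0.45, 0.090, 0.39 and 0.97. Without replicate 1 of ovary the ovary difference was 0.0043 (adjusted p = 1.0). Ovary was called higher by plain totals, with 0.75 (adjusted p = 0.015), and cerebellum lower by RLE, with −0.42 (adjusted p = 0.037). In the order of its means, colon differed from ovary by 0.60 ± 0.24 (adjusted p = 0.045) and testis from heart by 0.82 ± 0.25 (adjusted p = 0.0048). By plain totals the step from colon to ovary was 0.29 (adjusted p = 0.49). The 3 steps between ovary, brain, cerebellum and testis were not called.

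*Pvt1* was read in every tissue at about 1 FPKM or less, except in brain and ovary. The 6 brain libraries ran from 1.42 to 1.87 FPKM with a median of 1.54, above all other libraries, as they did for *Miat*. Ovary held 1.30, 1.15 and 1.35 FPKM and testis 0.799, 0.874 and 0.971 FPKM. The mean was 0.880 ± 0.202 FPKM (SD, n = 6) in cerebellum and 0.671 ± 0.271 FPKM (SD, n = 6) in colon, where libraries ran from 0.354 to 1.12 FPKM. Heart was lowest, with 0.217, 0.302 and 0.458 FPKM in females and 0.168 and 0.166 FPKM in males. Its neighbour *Myc*, 47612 bases away, was highest in ovary with 38.3 FPKM and lowest in testis with 1.74 FPKM, and had r = −0.17 to *Pvt1* over the 29 libraries.

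Brain was higher than the mean of the other 5 tissues by 1.22 ± 0.15 in log2 (adjusted p = 6.0e-08), and heart was lower with −1.599 ± 0.20 (adjusted p = 2.1e-07). The colon difference of −0.44 ± 0.17 (adjusted p = 0.023) was lost in several settings: it was −0.29 by plain totals (adjusted p = 0.20), by RLE (adjusted p = 0.13) and by DESeq2, and −0.34 without the filter on low counts. The call was also lost without replicate 2 of female colon (−0.35), replicate 3 of male colon (−0.29) or replicate 2 of testis (−0.36). The testis difference of 0.46 ± 0.20 (adjusted p = 0.045) was lost in 18 of the 29 fits with 1 library left out, with values of 0.38 to 0.53, and was 0.19 (adjusted p = 0.49) by plain totals. It was also lost without the filter on low counts (0.28) and with a block on the replicate number (0.46, adjusted p = 0.059). Ovary, at 0.32 ± 0.20 (adjusted p = 0.23), was not called, but was higher by plain totals with 0.82 (adjusted p = 0.0027). Brain differed from ovary, the next tissue, by 0.75 ± 0.24 (adjusted p = 0.010), but by 0.31 (adjusted p = 0.33) by plain totals. Colon differed from heart by 0.96 ± 0.23 (adjusted p = 0.00087). Testis against cerebellum, at 0.34 (adjusted p = 0.20), was called by RLE with 0.53 (adjusted p = 0.043).

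*Dleu2*, the host of miR-15a and miR-16-1, had its lowest means in both neural tissues, where *Miat* and *Rmst* had their highest. Colon had a mean of 4.14 ± 1.18 FPKM (SD, n = 6), with libraries from 3.01 to 5.81 FPKM and a median of 3.72. Ovary held 4.17, 2.04 and 3.70 FPKM and testis 2.37, 2.63 and 2.19 FPKM. The heart libraries held 1.06, 1.17 and 3.44 FPKM in females and 1.35 and 1.26 FPKM in males. Without replicate 3 of female heart the heart mean was 1.21 ± 0.123 FPKM (SD, n = 4), next to that of cerebellum. The means of cerebellum and brain were 1.19 ± 0.376 FPKM (SD, n = 6) and 0.882 ± 0.296 FPKM (SD, n = 6).

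Brain was lower than the mean of the other 5 tissues, with −1.34 ± 0.21 in log2 (adjusted p = 4.6e-06), and so was cerebellum with −0.98 ± 0.21 (adjusted p = 0.00020). Colon was higher by 1.16 ± 0.18 (adjusted p = 3.3e-06). Testis was higher by 0.64 ± 0.24 (adjusted p = 0.019), which became 0.36 (adjusted p = 0.30) by plain totals and was not called without replicate 1 (0.66) or replicate 2 (0.62) of testis, nor without the filter on low counts (0.47). Ovary was at 0.42 ± 0.24 (adjusted p = 0.19), and at 0.92 (adjusted p = 0.0091) by plain totals. Heart, at 0.10 ± 0.21 (adjusted p = 0.86), turned to −0.37 (adjusted p = 0.26) by plain totals and to −0.08 (adjusted p = 0.95) without replicate 3 of female heart. In the order of means heart and cerebellum differed, by 0.90 ± 0.26 (adjusted p = 0.0039), or 0.73 (adjusted p = 0.017) without replicate 3 of female heart. By plain totals this step was 0.40 (adjusted p = 0.29) and was not called. Colon against ovary, at 0.62 (adjusted p = 0.087), was called by RLE with 0.82 (adjusted p = 0.032), and the other 3 steps were not called by TMM, RLE or plain totals.

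Counted over the 7 lncRNAs, brain was higher than the mean of the other 5 tissues in 3 and lower in 2, where 56% of all genes tested were called, 33% higher and 23.1% lower. Cerebellum was higher in 2 and lower in 1, with 52.8% of all genes called, 30.8% higher and 22% lower. Heart was lower in 5 and higher in none, with 51.7% of all genes called, 22.1% higher and 29.6% lower. Colon was higher in 4 and lower in 3, with 59.3% called, 28.2% higher and 31.1% lower. Ovary was higher in 1 and lower in 3, with 42.2% called, 22.4% higher and 19.8% lower, and testis was higher in 3 and lower in 2, with 67.1% called, 40.4% higher and 26.7% lower. Over all 15 pairs of tissues, 74 of 105 differences were called, or 9 to 14 per lncRNA, where 58.6% of all differences were. Colon, with 7 of 7 called, lay farthest above its share, and whether any of these counts differed from the background was not tested. Of the genes tested, 8493 (28.4%) had a group without any count, and none of the 7 lncRNAs did. Among the 21418 genes with counts in every group, the share called was 65.7% in brain, 62.2% in cerebellum, 63.9% in heart, 72.5% in colon, 53.3% in ovary and 69.1% in testis.

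**Figure D3:**
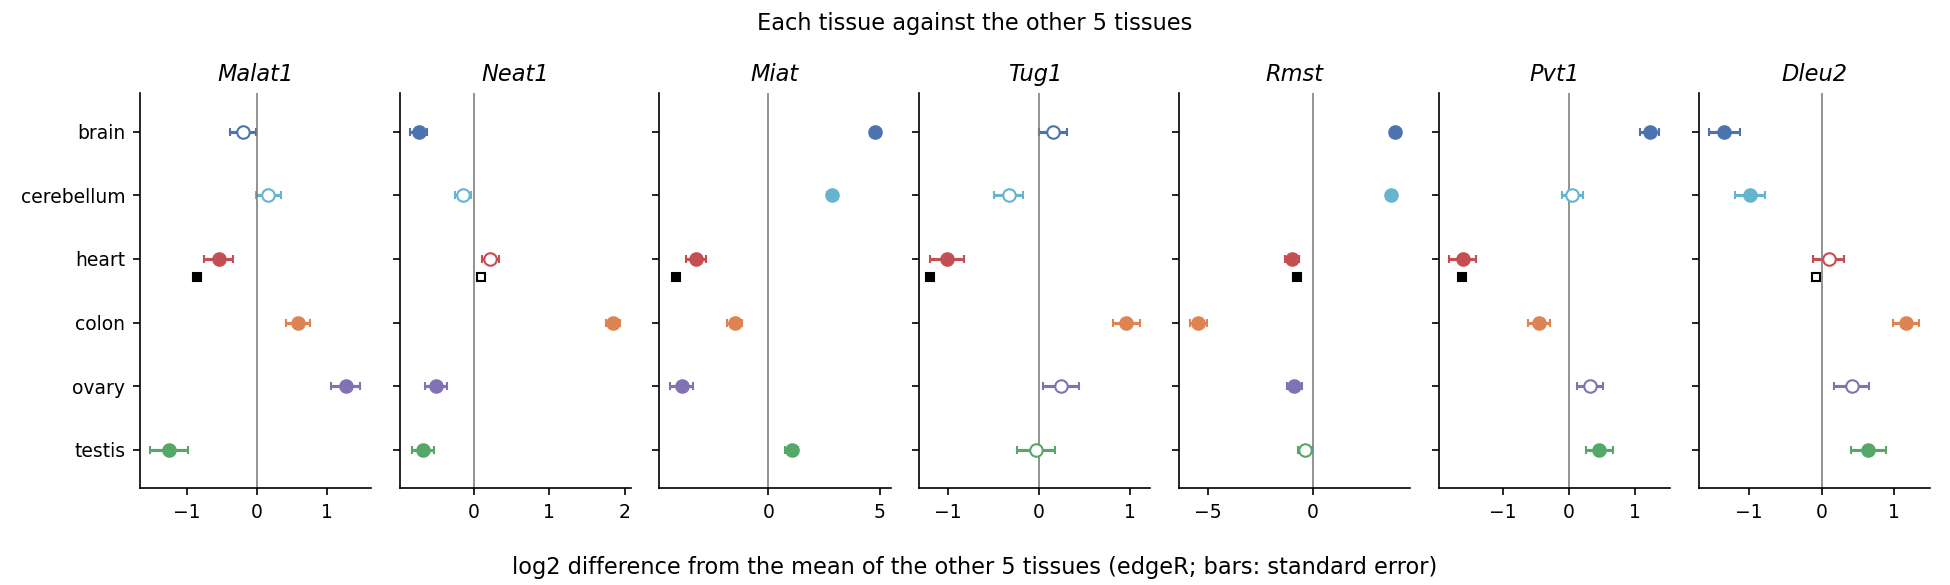
Difference of each tissue from the mean of the other 5 tissues in log2, with bars of 1 SE, for the 7 lncRNAs (each panel has its own scale, filled points are called and open ones are not, and black squares give heart without replicate 3 of female heart). *Miat* and *Rmst* were higher in brain and cerebellum, *Neat1*, *Tug1* and *Dleu2* in colon, and *Malat1* in ovary and colon, while the points of *Miat*, *Pvt1* and *Dleu2* in testis were not called by plain totals.

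Sex was compared within brain, cerebellum, heart and colon. By edgeR, 0 of the 7 lncRNAs were called in each of them, where 0.0368%, 0.0301%, 0.0635% and 0.324% of all genes tested were. At an unadjusted p under 0.05 there was 1, *Miat* in heart, and DESeq2 called 0, with 2 at an unadjusted p under 0.05, both in heart. For *Malat1* the male minus female differences in log2 were −0.12 ± 0.32 in brain, −0.05 ± 0.32 in cerebellum, −0.63 ± 0.36 in heart and −0.31 ± 0.32 in colon. The heart value was −0.01 ± 0.30 without replicate 3 of female heart. With these SE a difference of the size seen between neighbouring tissues was not detectable. *Miat* in heart was at −3.24 ± 0.94 (adjusted p = 0.22), and at −1.51 (adjusted p = 0.97) without replicate 3 of female heart. It was called when replicate 1 or 2 of female heart was left out instead. This value rests on 2 counts in male heart, which correspond to 0.00535 FPKM with a 95% Poisson interval of 0.000648 to 0.0193. The test of a sex difference that changes with tissue called 0 of the 7, with 0 at an unadjusted p under 0.05, where 0.0167% of all genes were called.

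By plain totals, the scale of FPKM, replicate 3 of female heart held more of 6 of the 7 lncRNAs than any other heart. The ratio to the mean of the other 4 hearts was 4.36 for *Malat1*, 2.49 for *Neat1*, 3.20 for *Tug1*, 2.15 for *Pvt1* and 2.84 for *Dleu2*. It was 17.9 for *Miat*, from 41 counts against 1 to 4. *Rmst*, with a ratio of 0.675, lay within the range of the other hearts. With TMM scaling the ratios were smaller, 2.63 for *Malat1*, 1.51 for *Neat1*, 10.7 for *Miat*, 1.93 for *Tug1* and 1.72 for *Dleu2*. On that scale *Pvt1*, with a ratio of 1.29, lay within the range of the other hearts and *Rmst*, with 0.400, below it. *Xist*, another nuclear lncRNA, was at 52.7 FPKM against 10.9 and 13.7 in the other 2 female hearts. The same library had 695 FPKM of *Adipoq* against 0.0517 to 1.74, 92.3 FPKM of *Plin1* against 0 to 0.524, and 2291 FPKM of *Fabp4* against 358 to 495, that is all 3 of 3 adipocyte markers. It also had 37.9 FPKM of B cell markers against 1.604 to 3.25, and 169 FPKM of macrophage markers against 63.6 to 89.6, while cardiomyocyte markers were lower. The smooth muscle markers were lower only as a sum, through *Des* (518 FPKM against 1091 to 1410). *Myh11* (9.91 FPKM against 0.678 to 2.42) and *Acta2* (132 FPKM against 44.8 to 95.7) were higher than in the other hearts. The part of these cells in the levels of the lncRNAs was not tested.

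**Figure D4:**
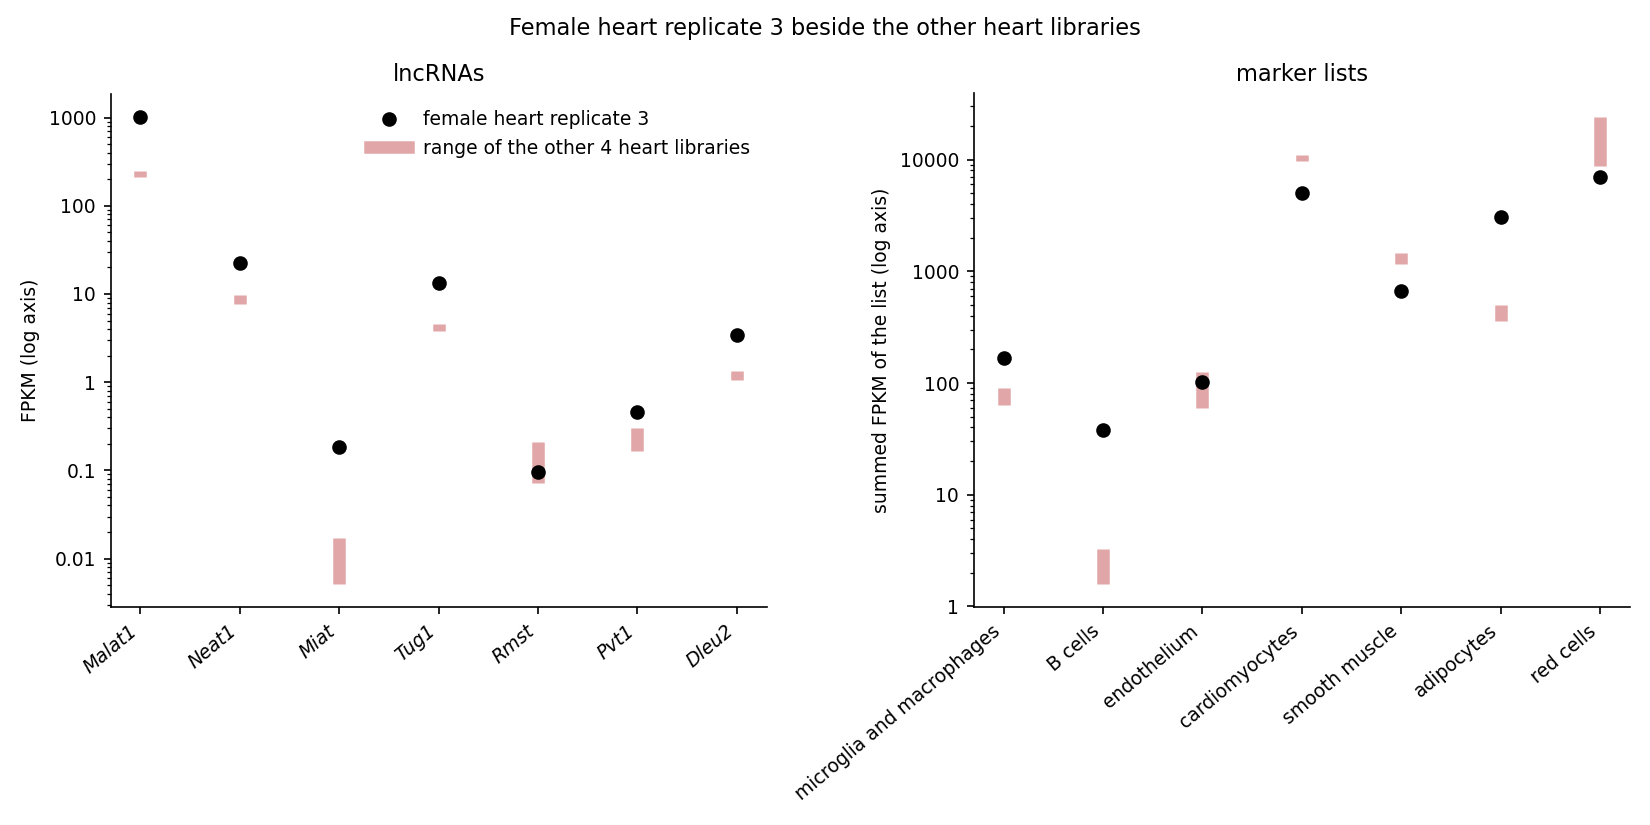
Replicate 3 of female heart (points) beside the range of the other 4 heart libraries (bars), as FPKM (by plain totals) of the 7 lncRNAs on the left and summed FPKM of 7 marker lists on the right (log axes). The library lies above the bars for 6 lncRNAs and inside the bar for *Rmst*, above them for adipocyte, B cell and macrophage markers, and below them for cardiomyocyte, smooth muscle and red cell markers. The smooth muscle sum was lower through *Des* alone, while *Myh11* and *Acta2* were higher.

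Replicate 1 of ovary was the other library with a far higher *Malat1* level, 2.66 times the mean of the other 2. *Tug1* was 1.73 times higher there and *Xist* 2.12 times, with 103 FPKM against 39.8 and 57.7. *Rmst* stood at 1.81 times, *Dleu2* and *Miat* each at 1.45 times, *Neat1* at 1.06 times and *Pvt1* at 1.04 times. With TMM scaling the ratio was 2.38 for *Malat1* and 1.55 for *Tug1*. The same library was the lowest of the 3 ovaries in ovarian somatic markers (1154 FPKM, with 2094 the highest) and in adipocyte markers (25.1 FPKM, with 262 the highest). It was also the lowest in smooth muscle markers (940 FPKM, with 1987 the highest) and in endothelium, macrophage and oocyte markers. In red cell (322 FPKM), colon epithelial (23.1 FPKM) and oligodendrocyte markers (14.9 FPKM) it was the highest. The part of these differences in the *Malat1* level was not tested.

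Within groups, some of the lncRNAs moved together. Each library's deviation from its group mean in log2 was taken for the 29 libraries, with shared depth and scaling. *Malat1* and *Tug1* deviated together with r = 0.79, and *Tug1* and *Dleu2* with r = 0.74. For *Malat1* and *Dleu2* r was 0.63. Without replicate 3 of female heart and replicate 1 of ovary these became 0.74, 0.69 and 0.60. *Miat* rested more on the 2 libraries: its r with *Malat1* went from 0.63 to 0.44, with *Tug1* from 0.50 to 0.32, with *Dleu2* from 0.43 to 0.30 and with *Neat1* from 0.37 to 0.13. *Neat1* followed *Malat1* less, with r = 0.47 (0.41 without the 2 libraries). *Pvt1* and *Malat1* had r = −0.06. *Rmst* and *Pvt1* deviated in opposite directions with r = −0.43. The spread between libraries was largest for *Rmst* and *Miat*, with pooled SDs of 0.595 and 0.572 in log2, and these have the lowest counts outside neural tissue.

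**Figure D5:**
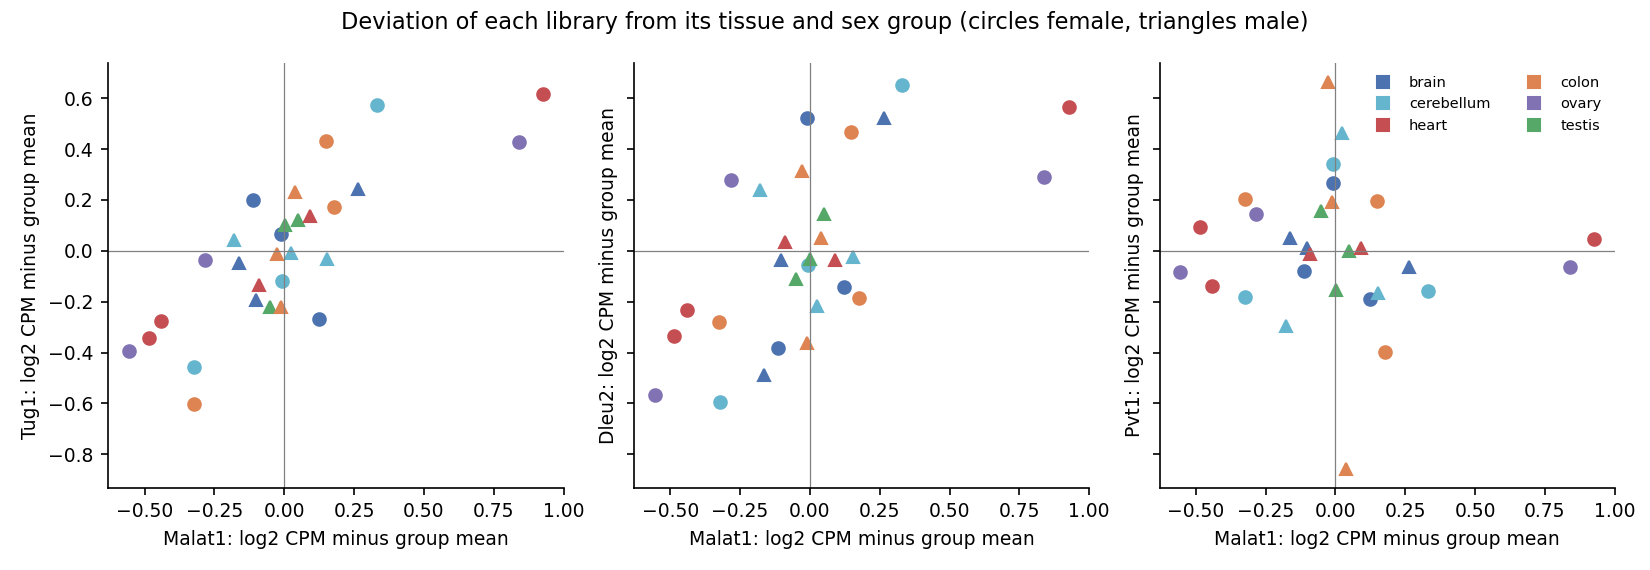
Deviation of each of the 29 libraries from its tissue and sex group mean in log2 CPM, for *Malat1* on the x axes and *Tug1*, *Dleu2* and *Pvt1* on the y axes (circles for females, triangles for males, colours for tissues). *Malat1* and *Tug1* deviated in the same direction (r = 0.79), as did *Malat1* and *Dleu2* (r = 0.63), and *Malat1* and *Pvt1* did not (r = −0.06).

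Across all 29 libraries, *Miat* and *Rmst* (r = 0.77) and *Miat* and *Pvt1* (r = 0.72) had like patterns, and *Rmst* and *Dleu2* (r = −0.87) and *Rmst* and *Neat1* (r = −0.76) had opposite ones. The genes whose log2 level was most like each lncRNA were named by the 3 highest Pearson r over the 29 libraries, which share tissue, depth and scaling. For *Malat1* they were *Gm37376* (0.92), *Firre* (0.91) and *Gm20342* (0.90). *Gm37376* is the model inside *Malat1* described above, so its counts cannot be told apart from those of *Malat1*. *Firre* is a nuclear lncRNA of the X chromosome, with 7.01 FPKM in ovary and 0.854 FPKM in testis.

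For *Neat1* the most alike were *Pmp22* (0.96), *Crybg1* (0.95) and *Fmo5* (0.95). *Pmp22* encodes a myelin and epithelial junction protein and *Fmo5* a flavin monooxygenase. For *Miat* they were *Egfem1* (0.98), *4933406I18Rik* (0.97) and *Hs6st3* (0.97), and for *Rmst* *Slc13a4* (0.97), *Rragb* (0.97) and *Tspyl2* (0.97). *Rragb*, a GTPase that signals amino acids to mTORC1, is known from brain. For *Tug1* they were *Zbtb6* (0.97), *Far1* (0.95) and *Pdik1l* (0.94), for *Pvt1* *Asic4* (0.91), *Slc35b4* (0.91) and *Nexmif* (0.90), and for *Dleu2* *Pkn2* (0.94), *Rnft1* (0.93) and *Gm15675* (0.92).

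The next protein-coding genes outside the loci of the other lncRNAs were read too. *Dleu7*, 593858 bases from *Dleu2*, was highest in brain (2.74 FPKM) and had r = −0.66 to *Dleu2*, and *Spryd7*, 45953 bases away on the other side, had r = −0.04. *Tmpo* and *Nedd1*, 889722 and 519576 bases from *Rmst*, were lowest in brain and had r = −0.75 and −0.69. *Osbp2*, 54058 bases from *Tug1*, was read at 221 FPKM in testis with r = −0.46, and *Smtn*, a smooth muscle gene, at 113 FPKM in colon with r = 0.22. *Cryba4*, 17098 bases from *Miat*, was highest in heart with r = −0.54, and *Gm26897*, 478654 bases away on the other side, was highest in brain (2.77 FPKM) with r = 0.32.

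Proteins that act with these lncRNAs were read as lists, against the mean of the other 5 tissues and with the background shares given above. Of 18 paraspeckle proteins, 11 were higher and 1 lower in brain, 9 and 1 in cerebellum, 7 and 0 in ovary, 7 and 6 in testis, and 1 and 10 in heart. In colon, where *Neat1* was highest, 0 were higher and 14 lower, with a list median of −0.43 in log2 beside −0.38 over all genes tested. *Nono*, a core paraspeckle protein, was lower in colon by −0.35 ± 0.07 (adjusted p = 0.00024) and in testis by −1.38 ± 0.11 (adjusted p = 1.7e-11), and higher in ovary by 1.28 ± 0.09 (adjusted p = 4.8e-12). *Rbmx*, a splicing regulator, had −0.88 ± 0.08 in colon (adjusted p = 7.7e-10), and *Hnrnpa1*, an RNA-binding protein of splicing and export, −0.44 ± 0.08 (adjusted p = 5.4e-05).

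Of 18 nuclear speckle proteins, 9 were higher and 0 lower in ovary, the tissue with the highest mean of *Malat1*, with a list median of 0.29 beside −0.15 over all genes. Brain had 5 higher and 4 lower, cerebellum 4 and 4, heart 2 and 9, colon 4 and 7, and testis 5 and 5. *Clk1*, a kinase that phosphorylates splicing factors, was higher in colon by 1.16 ± 0.15 (adjusted p = 4.0e-08). *Snrnp70*, of the U1 snRNP, was higher in ovary by 0.64 ± 0.09 (adjusted p = 1.8e-06) and lower in heart with −0.61 ± 0.08 (adjusted p = 5.9e-07). *Srsf7*, a splicing factor, was higher in ovary by 0.52 ± 0.13 (adjusted p = 0.0015) and lower in heart with −0.60 ± 0.12 (adjusted p = 7.7e-05).

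The 3′ end of *Malat1* is cut by RNase P, RNase Z trims the small RNA that is released, and *Mettl16* binds the triple helix. Of 12 genes for these factors, 11 were lower and 0 higher in colon, with a list median of −1.16 beside −0.38 over all genes. In the other tissues 5 were higher and 1 lower in brain, 4 and 1 in cerebellum, 5 and 1 in heart, 5 and 0 in ovary and 6 and 4 in testis. The RNase P subunit *Rpp25* ranged most, with −3.00 ± 0.26 in colon (adjusted p = 1.2e-10) and 2.85 ± 0.20 in ovary (adjusted p = 1.1e-11). *Rpp38* (−1.61 ± 0.16, adjusted p = 1.3e-09) and *Rpp40* (−1.37 ± 0.17, adjusted p = 8.9e-08) were lower in colon too. *Malat1* itself was higher in colon.

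The 3 splicing factors known to bind *Miat* were lower in colon, 3 of 3. Brain and cerebellum each had 2 higher and 0 lower, heart 1 and 2, ovary 0 and 2, and testis 2 and 1. *Celf3*, a neural splicing factor, was higher in brain by 3.86 ± 0.17 (adjusted p = 7.5e-17) and lower in heart with −4.39 ± 0.32 (adjusted p = 9.5e-12), in the same direction as *Miat*. *Qk*, which acts in oligodendrocytes, was higher in cerebellum by 1.59 ± 0.12 (adjusted p = 6.2e-12). *Sf1*, which recognises the branch point, was at 0.04 ± 0.08 in brain (adjusted p = 0.80), where *Miat* was highest.

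Of 13 other lncRNAs of imprinted, X-linked or neural loci, 11 were tested. In brain 8 were higher and 1 lower, and in cerebellum 8 and 0. Neural loci were among those chosen, so these 2 counts were partly set by the choice of genes. Heart had 1 and 7, colon 3 and 5, ovary 2 and 3, and testis 3 and 6, although 3 of the 11 had a group without a count. *Snhg11*, a neural snoRNA host gene, was higher in brain by 4.92 ± 0.21 (adjusted p = 1.1e-16). *Dlx6os1*, an antisense RNA of a forebrain interneuron locus, was higher there by 8.17 ± 0.35 (adjusted p = 4.0e-15), and the imprinted *H19* was higher in heart by 5.05 ± 0.22 (adjusted p = 1.6e-16).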

How the data were processed

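Levels of 7 lncRNAs were read from 29 mouse RNA-seq libraries. The authors deposited whole-number counts per gene, made from uniquely mapped reads, and the submitters' processing notes name FastQC 0.11.8, HISAT2 2.0.5, MultiQC 0.9, featureCounts 1.6.3 and mm10. Whether featureCounts used the strand is not given in the sources used here. Genes were the authors' Iso-seq loci on GRCm38.p6 plus the ENSEMBL genes without one. GENCODE vM21 gave names, sequences and reference exons. The 7 lncRNAs, the gene lists and the markers were chosen with earlier results of these data known.

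The counts were fitted in one model over all libraries with edgeR 4.0.16 (R 4.3.3): TMM, filterByExpr, a mean per tissue and sex, and quasi-likelihood tests with Benjamini-Hochberg adjustment at 0.05. A tissue is the mean of its sex groups. FPKM used the deposited library totals (11742417 to 36194255) and the union of counted exons. Correlations used log2 CPM with a prior count of 2. Named genes were the 7 lncRNAs, for each the 3 most alike and the nearest protein-coding genes, genes sharing their exons, and up to 3 per list with the largest tissue range. Poisson intervals are at 95% and the limit for no count is 3 counts. The code was tested on simulated data. Alternatives were RLE, DESeq2 1.42.0, no filter, totals without mitochondrial genes, counts summed over models, blocks on the replicate number and on the library code, leaving out each library and, chosen after seeing the data, plain totals. Replicate libraries differed by more than sampling noise (lowest chi-square per gene 11.1), so all were kept.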

Additional observations from a re-analysis of the deposited data

Results flagged for a closer look

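In 28 sets of 5 or 6 libraries of 1 lncRNA and tissue, 6 had a highest library set apart from the rest by more than Dixon's 95% limit on the gap over the range. Chance gives about 1 in 20. In heart, 5 of these were replicate 3 of female heart. It held *Malat1* at 1019 FPKM with a gap of 0.954 of the range (next 251 FPKM), *Neat1* at 22.7 FPKM with 0.861 (next 9.84 FPKM), and *Miat* at 0.184 FPKM with 0.933 (next 0.0172 FPKM). It held *Tug1* at 13.3 FPKM with 0.927 (next 4.54 FPKM) and *Dleu2* at 3.44 FPKM with 0.879 (next 1.35 FPKM). All 5 come from the same library, so they are not separate events, and the same library stands apart in adipocyte, B cell and cardiomyocyte markers, whose part was not tested. Replicate 3 of female cerebellum held *Tug1* at 18.7 FPKM, with a gap of 0.752 of the range to the next library at 11.1 FPKM.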

How the results depend on the processing

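Of the 29 called differences of a lncRNA from the mean of the other 5 tissues, 0 turned direction over the 1073 values from all alternatives. With 1 library left out, 792 values kept their call and 49 lost it. With the other settings, 215 kept it and 17 lost it. Both numbers include a block on the library code of the labels in ovary and testis, which cannot test these calls. In testis the count of 5 called lncRNAs fell to 2 by plain totals and 3 without the filter on low counts, and the cause was not tested. The library code lies within sex, and ovary and testis weigh the sexes unequally against the other 5 tissues. Their values with a block on this code depend on which code is the baseline, so they cannot test these calls. In cerebellum, where the sexes weigh equally, the block called 4 lncRNAs in place of 3. With 1 library left out, the counts ran from 3 to 5 in heart (3 without replicate 2 of male heart), 2 to 4 in ovary (2 without replicate 2), 3 to 5 in testis (3 without replicate 1 or 2), 3 to 4 in cerebellum, 6 to 7 in colon and 0 to 1 between sexes in heart (1 without replicate 1 or 2 of female heart). Where 1 library was left in an arm, it was assumed to vary like the other groups. Replicate numbers did not pair the libraries: the 126 pairs with the same number had correlations of −0.259 to 0.155, and 5 were over 0.1. The library code without its last digit gathers libraries of 1 sex from different tissues, and what it stands for is not given in the labels: 53 pairs that share it had correlations of −0.0990 to 0.223, with 4 over 0.1, and 115 pairs of the same sex that do not, −0.259 to 0.279, with 2 over 0.1. With the replicate block 74 pairwise differences were called as before, and 4 lncRNAs in testis in place of 5. FPKM of 17 of 42 lncRNA and tissue means moved beyond 1 SD with the reference exon length and 7 with TMM library sizes. *Rmst* had its highest mean in cerebellum in place of brain without replicate 1 of female brain, male brain or male cerebellum. Depth limits *Miat* outside neural tissue and testis and *Rmst* in colon, which rest on few counts.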
